A study of Mus musculus with 230 samples.

Results

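The nuclear genes for the subunits of oxidative phosphorylation were followed in sensory neurons of mouse dorsal root ganglia, with and without sciatic nerve injury. The members were chosen by name from the gene count table: Nduf genes of the a, b, c, s and v series, Sdha to Sdhd, and every gene whose name starts with Uqcr, Cox4 to Cox8 or Atp5. Names ending in -ps, which mark pseudogenes, were left out (7 names). This gave 92 members of 53278 genes: 44 of complex I, 4 of complex II, 8 of complex III, 20 of complex IV and 16 of complex V. Of the 44 complex I members, 7 are core subunits, 29 are accessory subunits and 8 are assembly factors that help to build the complex. Ndufa4 and Ndufa4l2 were counted with complex IV, to which the Ndufa4 protein belongs despite its name.

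Oxidative phosphorylation turns the energy of food into ATP at the inner mitochondrial membrane. Complex I takes electrons from NADH and complex II takes them from succinate. Complex III passes them to cytochrome c and complex IV passes them to oxygen, and the proton gradient that builds up drives the ATP synthase, complex V. Most subunits are encoded in the nucleus, while a small set is encoded in mitochondrial DNA, so each complex other than complex II is assembled from both genomes. Sensory neurons with long axons depend on this pathway for axonal transport and for the firing of action potentials.

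All mice were crosses of C57BL/6 and CAST/Ei. Surgery on the sciatic nerve gave the injured neurons, and intact neurons had no such injury. Time between surgery and collection, and whether intact neurons came from other mice or from the other side, are not given in the sources used here. L4 and L5 ganglia were dissociated with enzymes, neurons were picked by hand, each nucleus was removed, and cDNA was made from the remaining cytoplasm with SMART-seq2, a full-length method. The low-input libraries, made from small amounts of material, formed 6 groups of 3: intact and injured neurons at 1, 8 and 12 months of age, the last labelled 1 year. Single neurons formed 4 groups: 18 intact and 21 injured cells at 1 month, and 8 intact and 22 injured cells at 1 year. Nothing in the labels says that libraries of a group came from separate mice, so p-values measure only the spread between these libraries.

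The 18 low-input libraries held 7531967 to 19443627 counts of mouse genes, of which 29.4% to 93.8% fell on a single feature, CT010467.1. The share of this feature was 29.4% to 59.7% in injured and 40.4% to 93.8% in intact libraries. Members held 2498 to 335358 counts per library. The second intact library of 12 months stood apart. It had 93.8% of its counts on that feature and 770328 counts elsewhere, of which 0.324% were of members, against 1.13% to 3.76% in the other 17 libraries. Mitochondrial genes took 40.5% of its counts outside the feature, against 1.19% to 3.55% in the others. The main counts that use the 12-month intact group are therefore also given without this library. Genes that mark nerve injury were higher in injured libraries, with 10 of 11 called in the comparison averaged over ages, Atf3 among them. Libraries of 12 months held 0 counts of Y-linked genes, whereas those of 1 and 8 months held 149 to 725, so age and sex cannot be told apart in any comparison with 12 months.

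Levels are in CPM, counts relative to library size, with library sizes scaled by the trimmed mean of M values (TMM), which assumes that most genes do not differ. Each value is thus a share of a library's RNA rather than an amount per neuron. Between genes, levels were compared per kilobase of exon, averaged over the 18 low-input libraries. The exon length joins all annotated transcripts, so these levels are approximate. Of the 92 members, 85 were high enough to be tested. Their levels per kilobase ran from 0.958 for Cox7a1 to 335.3 for Cox8a, with a median of 49.7.

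The members with the highest levels per kilobase in each complex came from different functional classes. In complex I they were Ndufa2, an accessory subunit of the peripheral arm, at 125 CPM per kilobase, and Ndufb6, an accessory subunit of the membrane arm, at 120.3. Sdhd at 63.1 and Sdhb at 62.7 CPM per kilobase led complex II, and their ranges over the libraries, 4.402 to 102 and 11.3 to 100.4, overlapped almost fully. Sdhd is a membrane anchor of succinate dehydrogenase and Sdhb is its iron-sulfur subunit. Complex III was led by the small subunits Uqcr11 at 167 and Uqcr10 at 105 CPM per kilobase. Cox8a at 335 and Cox6a1 at 232 CPM per kilobase led complex IV. Complex V was led by the F1 head, with its catalytic beta subunit Atp5b at 221 and its alpha subunit Atp5a1 at 126 CPM per kilobase.

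Isoform pairs of cytochrome c oxidase showed which form these neurons transcribe. Cox4i1, the ubiquitous form of subunit 4, was at 217 CPM per kilobase (range 86.2 to 392), and Cox4i2, its hypoxia-responsive counterpart, at 0.394 (range 0 to 1.05). Cox6a1, Cox7a2 and Cox8a, the forms known from liver, were at 232, 110.4 and 335 CPM per kilobase. Their heart and muscle counterparts Cox6a2, Cox7a1 and Cox8b were at 0.0214, 0.958 and 0.0264. The ranges within each pair did not overlap. Cox6b1 was at 196 CPM per kilobase, while Cox6b2, a testis form, was at 0.0506. Cox7b2 and Cox8c were at 0.0710 and 0.0679, against 80.5 for Cox7b. Ndufa4 was at 136 and Ndufa4l2 at 0.0530 CPM per kilobase. Cox4i2, Cox6a2, Cox6b2, Cox7b2, Cox8b, Cox8c and Ndufa4l2 made up the 7 members that were too low to test. The 3 genes for the c subunit of the ATP synthase ring, which encode the same mature protein, were at 49.7 for Atp5g3, 24.5 for Atp5g1 and 19.2 CPM per kilobase for Atp5g2. Their ranges overlapped, at 10.8 to 104, 8.09 to 51.7 and 5.39 to 29.4.

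The first comparison asked whether injury went with a different level of these transcripts, averaged over the 3 ages. Injured neurons had lower levels of 11 of the 85 tested members and higher levels of none, by edgeR's quasi-likelihood test with Benjamini-Hochberg adjustment over 14212 genes, called at an adjusted p below 0.05. The background was 1.07% of all tested genes called lower. Of the 11, 7 belonged to complex I, 2 to complex III and 2 to complex V. The log2 fold change was below 0 for 76 of 85 members, with a median of -0.41 against 0.03 over all genes. These directions hold for shares of RNA: scaled to the ERCC spike-in RNA instead, all 85 members were called higher in injured neurons. That scaling called 13493 genes in either direction, and the median log2 fold changes were 2.42 for members and 2.90 for all genes. Spike-in counts differed within groups, at 4305802, 399915 and 2334025 in the 3 intact libraries of 8 months. The sources used here do not say whether spike-in amount and number of neurons were equal between libraries. Spike-in scaling therefore does not give an amount of RNA per neuron here. In bulk libraries, a smaller share of neurons that express a gene and less of its RNA per neuron cannot be told apart.

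**Figure D1:**
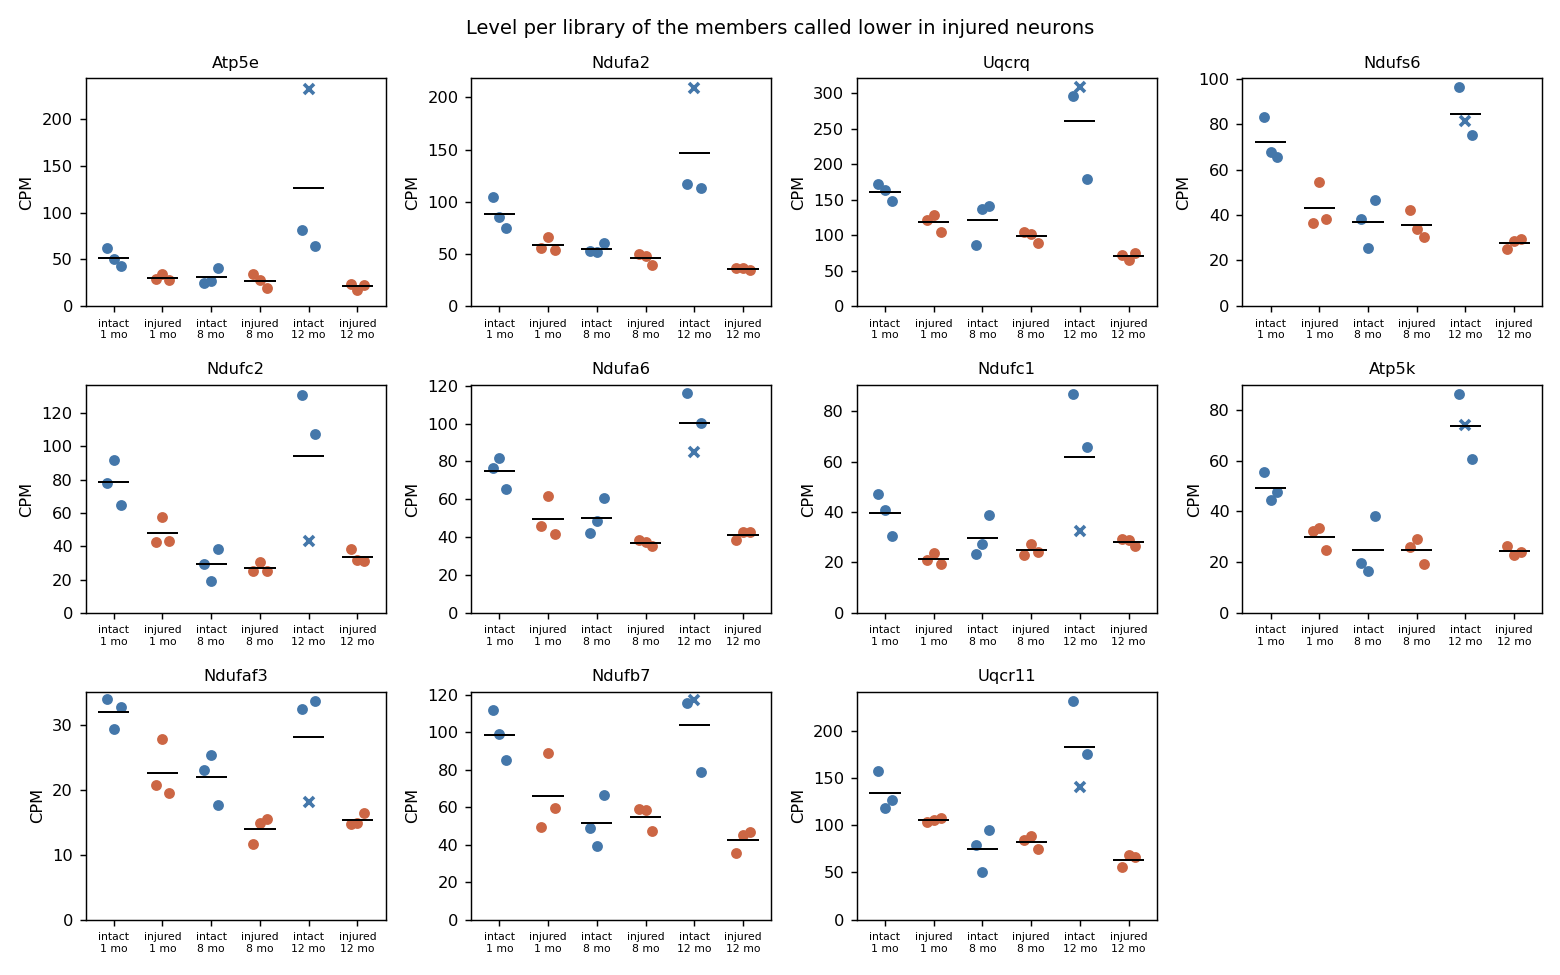
Level of each of the 11 members called lower in injured neurons, averaged over ages, in TMM-scaled CPM on a linear axis that starts at 0. Points are the 18 libraries in 6 groups of 3 (blue intact, orange injured), bars are group means, and the cross is the second 12-month intact library. Ndufa2, Ndufa6 and Ndufaf3 are the panels in which every injured library lies below every intact library of the same age. With spike-in scaling all 11 log2 fold changes turn positive.

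Accessory subunits of complex I surround the catalytic core and stabilise it, and all 29 had a log2 fold change below 0, with a median of -0.51. Of these, 6 were called lower: Ndufa2, Ndufa6, Ndufs6, Ndufc1, Ndufc2 and Ndufb7. With spike-in scaling, as for every member, these changes were positive. Ndufa2 (chromosome 18, 36742332 to 36744557, minus strand, build mm10), a subunit of the peripheral arm with a thioredoxin-like fold, had the smallest adjusted p of all members. In intact neurons it was at 104, 85.7 and 74.3 CPM at 1 month, 52.6, 51.9 and 59.9 CPM at 8 months, and 117, 209.5 and 113 at 12 months. In injured neurons it was at 55.3, 65.7 and 54.1 CPM at 1 month, 49.96, 47.7 and 39.2 CPM at 8 months, and 36.4, 36.2 and 34.7 at 12 months. Injured libraries were lower than intact libraries of the same age without overlap, by the smallest margin at 8 months. The log2 fold change averaged over ages was -0.96 ± 0.15 (SE, adjusted p = 0.000873). The gene overlaps Tmco6, and reads were counted without strand, so part of its count may come from that neighbour.

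Ndufa6 (chromosome 15, 82350139 to 82354291, minus strand), an LYR-motif subunit, fell by 0.78 on the log2 scale (SE 0.14, adjusted p = 0.0023). It was at 76.8, 81.8 and 65.6 CPM in intact and 45.7, 61.8 and 41.8 in injured libraries of 1 month. At 8 months it was at 42.1, 48.3 and 60.4 against 38.3, 37.3 and 35.1 CPM, and at 12 months at 116, 84.9 and 100.4 against 38.2, 42.5 and 42.7. As for Ndufa2, the groups did not overlap at any age, and the gap was widest at 12 months. Ndufs6 (chromosome 13, 73319838 to 73328542, minus strand), a zinc-binding subunit of the peripheral arm, had a log2 fold change of -0.80 ± 0.15 (SE, adjusted p = 0.00443). Over all ages it ran from 25.6 through a median of 67.8 to 96.5 CPM in the 9 intact libraries and from 25.1 through 33.7 to 54.6 in the 9 injured ones. Ndufs6 overlaps the mitochondrial ribosome gene Mrpl36 on the genome.

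Ndufc1 (chromosome 3, 51404677 to 51408988, minus strand) and Ndufc2 (chromosome 7, 97400003 to 97407802, plus strand) encode small subunits of the membrane arm. Their log2 fold changes were -0.77 ± 0.18 (SE, adjusted p = 0.014) and -0.78 ± 0.20 (adjusted p = 0.0239). Ndufc1 ran from 23.2 through 39.01 to 87.1 CPM in intact and from 19.4 through 23.96 to 29.2 in injured libraries, and Ndufc2 from 19.2 through 64.998 to 131 and from 25.1 through 31.5 to 57.7. The ranges of intact and injured libraries overlap for both genes, and the lowest intact values are those of 8 months. Ndufc2 overlaps the feature Gm16053 on the genome. Ndufb7 (chromosome 8, 83566671 to 83571626, plus strand), a membrane-arm subunit, fell by 0.59 (SE 0.16, adjusted p = 0.0392), from a median of 85.1 (39.03 to 117) to 49.4 CPM (35.8 to 88.97). The call for Ndufb7 is close to the threshold and was lost in 14 of 25 alternative analyses, and that for Ndufc2 in 7 of 25. These counts ignore direction, so spike-in scaling, which called both genes higher, was not counted as a loss.

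Of the 8 complex I assembly factors, 1 fell. Ndufaf3 (chromosome 9, 108565537 to 108567434, minus strand), which takes part in an early assembly step, was at 33.9, 29.3 and 32.6 CPM in intact and 20.7, 27.8 and 19.4 in injured libraries of 1 month. At 8 months it was at 23.1, 25.3 and 17.7 against 11.6, 14.9 and 15.4 CPM, and at 12 months at 32.4, 18.1 and 33.7 against 14.8, 14.8 and 16.4. The groups did not overlap at any age, and the log2 fold change was -0.69 ± 0.16 (SE, adjusted p = 0.0122). Ndufaf3 overlaps Impdh2 on the genome. None of the 7 nuclear core subunits, which carry out electron transfer, was called, and 2 had an unadjusted p below 0.05. Their median log2 fold change was -0.25. Ndufs1, the iron-sulfur subunit of the electron input arm, had a log2 fold change of 0.21.

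No member of complex II passed the test, and none had an unadjusted p below 0.05. The log2 fold changes were 0.20 for Sdha, the flavoprotein, -0.14 for Sdhb, -0.09 for Sdhc and 0.01 for Sdhd, with a median of -0.04. The sign of Sdhd changed between alternatives. Complex II is the only complex of the 5 that is also an enzyme of the citric acid cycle.

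In complex III, 2 of 8 members fell, both small subunits without a redox centre. Uqcrq (chromosome 11, 53427922 to 53430831, minus strand), which lies next to cytochrome b, was at 173, 163 and 149 CPM in intact and 121.1, 129 and 104 in injured libraries of 1 month. At 8 months it was at 85.6, 138 and 141 against 104, 102 and 88.3 CPM, and at 12 months at 296, 309 and 179.7 against 71.4, 64.4 and 75.3. The groups were apart at 1 and 12 months and overlapped at 8 months, and the log2 fold change was -0.88 ± 0.15 (SE, adjusted p = 0.00192). Uqcr11 (chromosome 10, 80402997 to 80406830, minus strand) fell by 0.58 (SE 0.15, adjusted p = 0.0306), from a median of 127 (50.3 to 232) to 84.6 CPM (55.4 to 107), and its call was lost in 14 of 25 alternatives. Spike-in scaling, which called Uqcr11 higher, was not counted among those losses. Uqcrc1 and Uqcrc2, the large core proteins, had log2 fold changes of -0.03 and 0.06, and Uqcrfs1, the Rieske iron-sulfur protein, -0.23.

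In complex IV none of the 13 tested members was called, although all 13 had a log2 fold change below 0, between -0.58 and -0.09 with a median of -0.46, and 5 had an unadjusted p below 0.05. Cox6a1 had the smallest adjusted p, at 0.0654 for a log2 fold change of -0.46 ± 0.14 (SE). The expressed isoforms had similar values: -0.23 for Cox4i1, -0.31 for Cox6b1, -0.58 for Cox7a2, -0.32 for Cox7a2l, -0.57 for Cox7b, -0.46 for Cox8a and -0.50 for Ndufa4. Cox7a1, the muscle form, had -0.47 with an SE of 0.72, too wide to give its direction at this depth. With spike-in scaling each of these turned positive.

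In complex V, 2 of 16 members fell. Atp5e (chromosome 2, 174461072 to 174464105, minus strand), the epsilon subunit of the rotor stalk, had the lowest log2 fold change of the tested members, -1.17 ± 0.23 (SE, adjusted p = 0.00482). In intact neurons it was at 62.2, 50.5 and 42.7 CPM at 1 month, 24.1, 27.2 and 40.2 CPM at 8 months, and 81.9, 233 and 64.8 at 12 months. In injured neurons it was at 29.3, 33.8 and 27.6 CPM at 1 month, 33.95, 27.5 and 19.3 CPM at 8 months, and 23.2, 17.3 and 22.95 at 12 months. The value of 233 comes from the library that stood apart, and without it the change was -0.92 ± 0.15 (adjusted p = 0.0019). Atp5k (chromosome 5, 108433244 to 108434448, minus strand), subunit e, which takes part in joining the enzyme into dimers, fell by 0.77 (SE 0.17, adjusted p = 0.0126), from a median of 47.5 (16.6 to 86.4) to 25.9 CPM (19.3 to 33.3). The subunits of the catalytic head did not pass the test, with log2 fold changes of 0.08 for Atp5b and 0.04 for Atp5a1. The 10 members of the membrane part and peripheral stalk were all below 0 with a median of -0.34, among them Atp5g1 at -0.34, Atp5g2 at -0.21 and Atp5g3 at -0.37.

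Without the 12-month intact library that stood apart, 38 members were called lower in place of 11, against a background of 2.85% of 14733 tested genes. They were 22 of complex I, 4 of complex III, 6 of complex IV, 6 of complex V and none of complex II, and the median log2 fold change over the 85 members was -0.50. No member was called higher, against 1042 of the 14733 genes. An unadjusted p below 0.05 in edgeR's test was found for 61 of the 85 members and 3804 of the 14733 genes. With replicate number as a block at 1 month, where same-numbered libraries were taken as pairs from the data, 9 members were called. Ndufb7 and Uqcr11 were not among them. The share of all genes called in that fit is not given here.

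Known regulators of these genes bind short motifs near their start sites, and the upstream sequences of 4 members are shown because they carry the result in different ways. Windows of 300 bases around the start, from RefSeq (GRCm38.p6), were matched for 74 of the 92 members and searched on both strands for 3 words: GCGCATGC, of the type bound by NRF1, CCGGAAGT, of the ETS type bound by GABP, and AAGATGGCG, of the type bound by YY1. A gene with several windows counted if any of them held the word. The NRF1-type word was in 12 of 74 members (16.2%) and in 3.05% of all 27025 genes with a window. The YY1-type word was in 8 of 74 (10.8%) against 1.64%, and the ETS-type word in 5 of 74 (6.76%) against 4.31%. At least 1 of the 3 was in 32.4% of members and 8.47% of all genes with a window, and Uqcr11 was the member with more than 1. Among the 9 called members with a window, 5 held at least 1 word. The lines below give the 100 bases upstream of the start, 5′ to 3′ on the strand of the gene, all from genes on the minus strand, with capitals for a motif word on either strand. Ndufa6 was lower without overlap at each age and holds the NRF1-type word, Uqcr11 holds the ETS-type word, Atp5e had the lowest fold change, and Ndufaf3 was lower without overlap at each age. The last 2 hold none of the words.
Ndufa6, chr15:82354292-82354391: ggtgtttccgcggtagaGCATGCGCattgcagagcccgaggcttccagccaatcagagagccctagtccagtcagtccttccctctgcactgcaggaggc
Uqcr11, chr10:80406822-80406921: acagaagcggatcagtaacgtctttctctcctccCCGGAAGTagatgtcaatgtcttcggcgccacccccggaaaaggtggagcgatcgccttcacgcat
Atp5e, chr2:174464102-174464201: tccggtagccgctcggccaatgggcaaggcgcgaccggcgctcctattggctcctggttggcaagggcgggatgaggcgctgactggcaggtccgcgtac
Ndufaf3, chr9:108567437-108567536: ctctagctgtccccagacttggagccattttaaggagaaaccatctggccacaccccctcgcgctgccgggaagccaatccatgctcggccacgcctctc

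The second question was how the difference depended on age. At 1 month no member passed edgeR's test, against a background of 0.232% of genes called in either direction, and 5 members had an unadjusted p below 0.05. DESeq2 called none either. The fold changes lay mostly on one side: 79 of 85 members were below 0, with a median of -0.37 against -0.01 over all genes, and all 29 accessory subunits of complex I were below 0 with a median of -0.50. For 31 of 85 members every injured library was below every intact one, against 7.28% of all tested genes, and for none was every injured library above.

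At 8 months no member was called by edgeR or by DESeq2, against a background of 0.957%, and 2 had an unadjusted p below 0.05. Here 40 of 85 members were below 0 and the median was 0.03, close to the 0.01 of all genes. The groups stood apart with injured neurons lower for 4 members, Ndufa2, Ndufa6, Ndufaf3 and Ndufaf8, against 4.92% of all genes. They stood apart with injured neurons higher for 1 of 85, Sdhc, against 1334 of 14212 genes. Each complex had a median log2 fold change between -0.05 and 0.12.

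At 12 months 11 members were called lower and none higher, against a background of 0.802% called lower. They were Atp5e at a log2 fold change of -2.55, Ndufa2 at -2.02, Uqcrq at -1.89, Ndufs6 at -1.60, Atp5k at -1.60, Uqcr11 at -1.53, Ndufc2 at -1.51, Ndufa6 at -1.30, Ndufb7 at -1.28, Ndufv3 at -1.18 and Cox6a1 at -1.09. Their SE lay between 0.24 and 0.41. Ndufv3, an accessory subunit of the NADH-oxidising module, was at 145, 83.1 and 103 CPM in intact and 50.7, 46.2 and 49.99 in injured libraries of this age. Cox6a1 was at 286, 177 and 212 against 98.6, 100.4 and 119 CPM, and for both genes the groups did not overlap. The median over 85 members was -0.91, against 0.08 over all genes, and 77 were below 0. In 20 of 85 members the groups did not overlap with injured neurons lower, against 6.68% of all genes. Without the library that stood apart 53 members were called lower, against 3.0% of all genes, with a median of -1.21. No member was called higher in that fit, against 594 of 14733 genes. Leaving out injured library 1, 2 or 3 of 12 months left 4, 5 and 6 calls, for which the share of all genes is not given. With spike-in scaling 84 of the 85 were called higher at this age, with a median of 4.06 for members and 5.36 for all genes. The number of all genes called there is not given, so this count does not set members apart.

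**Figure D2:**
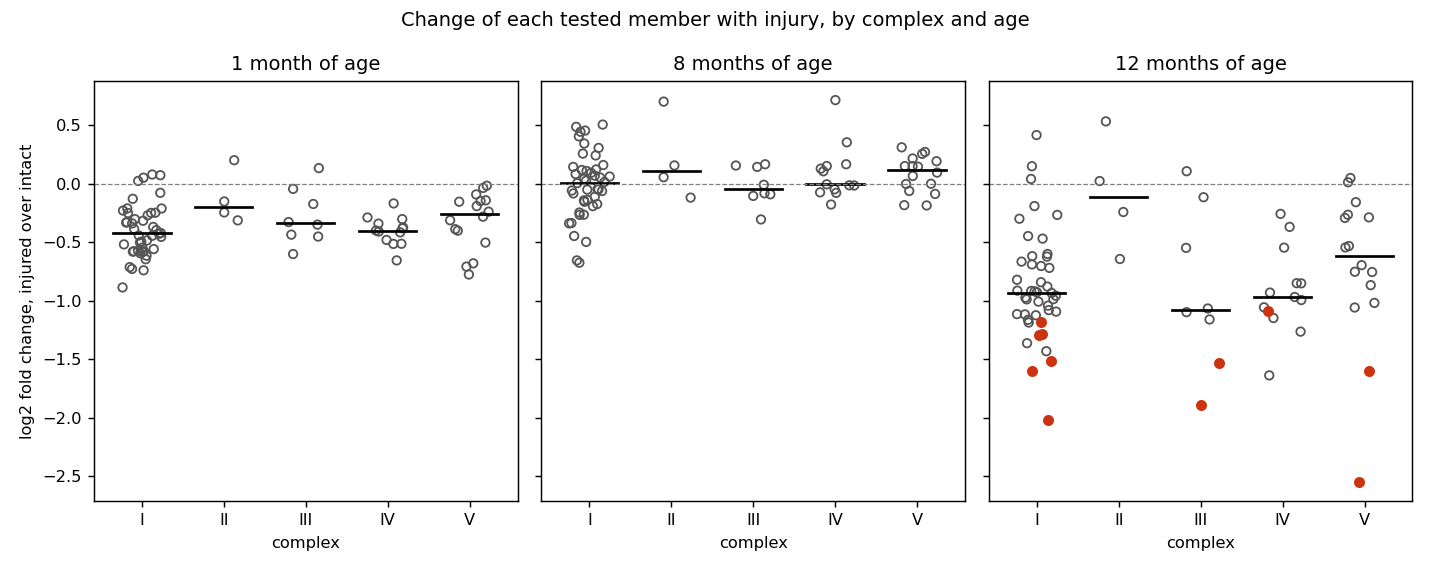
Log2 fold change of injured over intact neurons for each of the 85 tested members, by complex and age, on the TMM scale. Each circle is a member, filled red where called, and bars are medians. At 12 months the medians lie near -0.93 for complex I, -1.08 for III, -0.97 for IV and -0.62 for V, and at -0.11 for complex II, while at 8 months they lie between -0.05 and 0.12. The 12-month medians without the library that stood apart were -1.27 for complex I, -1.43 for III, -1.30 for IV, -1.05 for V and -0.57 for II. With spike-in scaling the members' median was 2.29 at 8 months and 4.06 at 12 months.

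Only Ndufa2, Ndufa6 and Ndufaf3 had injured libraries below intact ones without overlap at all 3 ages, 3 of 85 members against 0.12% of all tested genes. The difference between ages was tested as an interaction of injury and age. No member was called, and neither was any other gene (background 0.0%), while 14 members had an unadjusted p below 0.05. Ndufa2 had the smallest, p = 0.00039 in edgeR's test (adjusted p = 0.229). How many of all genes had an unadjusted p below 0.05 in this fit is not given. DESeq2 called 9 members for the interaction, and its share of all genes is not given here. Without the library that stood apart, edgeR called 9 genes, none of them a member. In that fit 51 of 85 members and 1929 of 14733 genes had an unadjusted p below 0.05.

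Summed over all 92 members, transcripts made up 10309.5 ± 1154 CPM (mean ± SD, n = 3) in intact and 8396 ± 1376 in injured neurons of 1 month. At 8 months the sums were 6546 ± 1560 and 6876 ± 957 CPM. At 12 months they were 10409 ± 5472 and 6800.2 ± 447 CPM. The 3 intact libraries of 12 months were at 15322, 4512 and 11393 CPM, so the library that stood apart lay below every injured one while the others lay above. Complex I had means of 3306, 2028 and 3387 CPM in intact and 2512, 2022 and 1909 in injured neurons at 1, 8 and 12 months. Complex II had means from 337 to 415 CPM, and its intact and injured libraries overlapped at each age. At 12 months this overlap rests on the library that stood apart, at 108 CPM, while the other intact libraries were at 543 and 412 CPM and the injured ones at 335, 384 and 352.

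**Figure D3:**
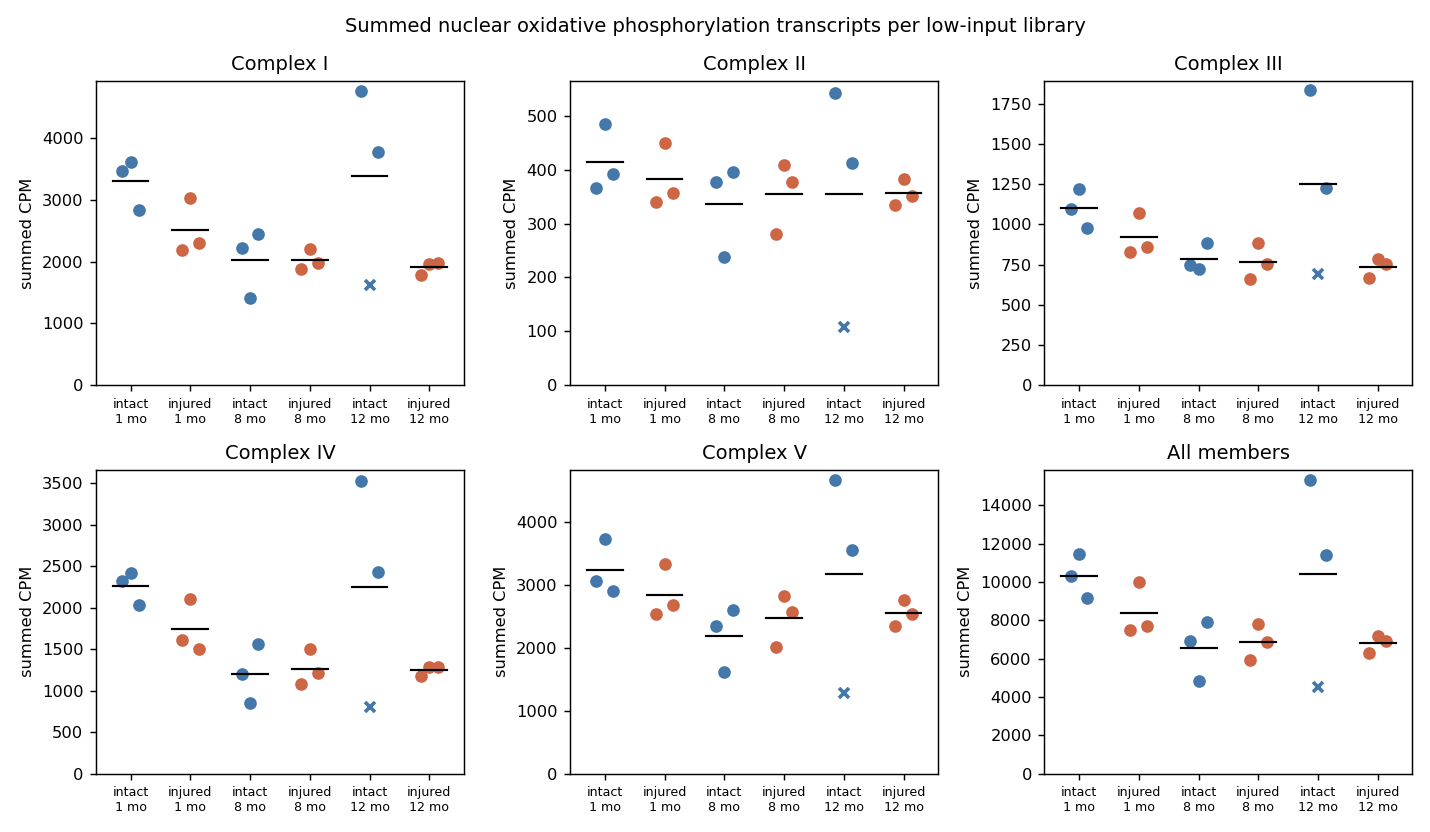
Summed CPM of the members of each complex, and of all members, in each of the 18 low-input libraries. Points are libraries (blue intact, orange injured), bars are group means of 3, and the cross is the second 12-month intact library, with 4512 CPM over all members. Axes are linear and start at 0. Among intact groups the mean is lowest at 8 months in each panel, and the injured groups lie between 6800.2 and 8396 CPM on average over all members.

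Comparisons between ages within a condition place these differences. In intact neurons, 81 of 85 members had a log2 fold change below 0 from 1 to 8 months, with a median of -0.76 against -0.01 over all genes, and 1 member was called lower, Cox7a2l, against a background of 0.591%. Without the library that stood apart, which belongs to neither group, 12 were called lower, against 1.84%. Leaving out the third intact library of 8 months gave 3 calls, and leaving out the first of 12 months gave 2, each without the share of all genes. From 8 to 12 months in intact neurons, 81 of 85 were above 0, with a median of 0.84 against -0.02 over all genes. There 17 members were called higher, against 2.77% of all genes. The 8 with the smallest adjusted p were Ndufa2 (1.40), Atp5k (1.57), Atp5e (2.02), Ndufc2 (1.72), Uqcr11 (1.29), Ndufa1 (2.00), Ndufs6 (1.195) and Cox7a2l (1.67), each value a log2 fold change. Ndufa1, an X-linked accessory subunit of complex I, was at 20.7, 10.8 and 28.2 CPM at 8 months and 114, 27.1 and 91.05 at 12 months. Without the library that stood apart, 59 members were called higher, against 6.88% of all genes. Leaving out the first or second intact library of 8 months, or the first of 12 months, left 9, 8 and 9 calls, again without the share of all genes. With spike-in scaling none was called and the median was -0.64, against -2.17 over all genes.

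From 1 to 12 months in intact neurons no member was called (background 0.246%), 4 had an unadjusted p below 0.05, DESeq2 called none, and the median was 0.06. With spike-in scaling all 85 were called lower in this comparison, with a median of -3.87 against -4.31 over all genes. The share of all genes called with that scaling is not given, so the 85 calls do not set members apart. In injured neurons from 1 to 12 months none was called (background 0.113%), with 7 at an unadjusted p below 0.05, none by DESeq2, and a median of -0.38. From 8 to 12 months none was called in injured neurons by edgeR (background 0.0633%) and 1 by DESeq2, with 1 at an unadjusted p below 0.05 and a median of -0.01. Without the intact library that stood apart, edgeR called 1. The share of all genes called in that fit is not given. Nor is the number of all genes at an unadjusted p below 0.05 in these comparisons. 

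Cox7a2l departed from the rest by the size of its difference, with a low level at 8 months in both conditions. Its protein is known as a factor of supercomplexes, in which respiratory complexes join, and its activity in these mice was not measured. In intact neurons it was at 87.5, 109 and 76.7 CPM at 1 month, 12.9, 17.2 and 20.4 CPM at 8 months, and 63.4, 16.3 and 75.4 at 12 months. In injured neurons it was at 62.4, 80.1 and 64.1 CPM at 1 month, 12.3, 18.7 and 13.7 CPM at 8 months, and 37.6, 44.6 and 42.4 at 12 months. The 8-month libraries lay below all 1-month libraries in each condition without overlap, as they also did for Ndufa2, Ndufa6 and Ndufaf3. The share of all genes with such a separation was not counted. From 1 to 8 months the log2 fold change was -2.43 (adjusted p = 0.0054) in intact neurons. It was -2.21 (adjusted p = 0.0152) in injured neurons, where Cox7a2l was also the only member called, against a background of 0.0704%. With replicate number as a block at 1 month, the calls were lost, at adjusted p = 0.0731 and 0.216. Leaving out any of 5 injured libraries also ended the call in injured neurons. Injury itself did not pass the test for Cox7a2l at any age.

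Shorter members had lower fold changes with injury. Among members with under 1000 bp of exon, 6 of 21 were called lower in the comparison averaged over ages, with a median of -0.57. Of the other tested genes of that length 20 of 740 were called lower, with a median of -0.27. Between 1000 and 2000 bp, 4 of 30 were called, with a median of -0.38, against 32 of 1679 other genes and -0.11. At 2000 bp and above, 1 of 34 was called, Ndufb7, with a median of -0.26, against 89 of 11708 other genes and 0.07. The share called lower was highest in the shortest class for members and for other genes. Within each length class the members' median was below that of the other genes, and both were higher in longer classes. Across the 85 members Spearman's rho between length and fold change was 0.447, and across the 14127 other genes 0.112. These are descriptions across genes of the same libraries, and genes are not independent replicates. At 12 months the medians were -1.09, -0.86 and -0.59 for members and -0.59, -0.22 and 0.16 for other genes. Leaving out the library that stood apart, 15, 14 and 9 members of the 3 classes were called lower averaged over ages, with medians of -0.70, -0.50 and -0.36. Among other genes 59 of 806, 116 of 1800 and 207 of 12042 were called lower. The part of length in the result was not tested.

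**Figure D4:**
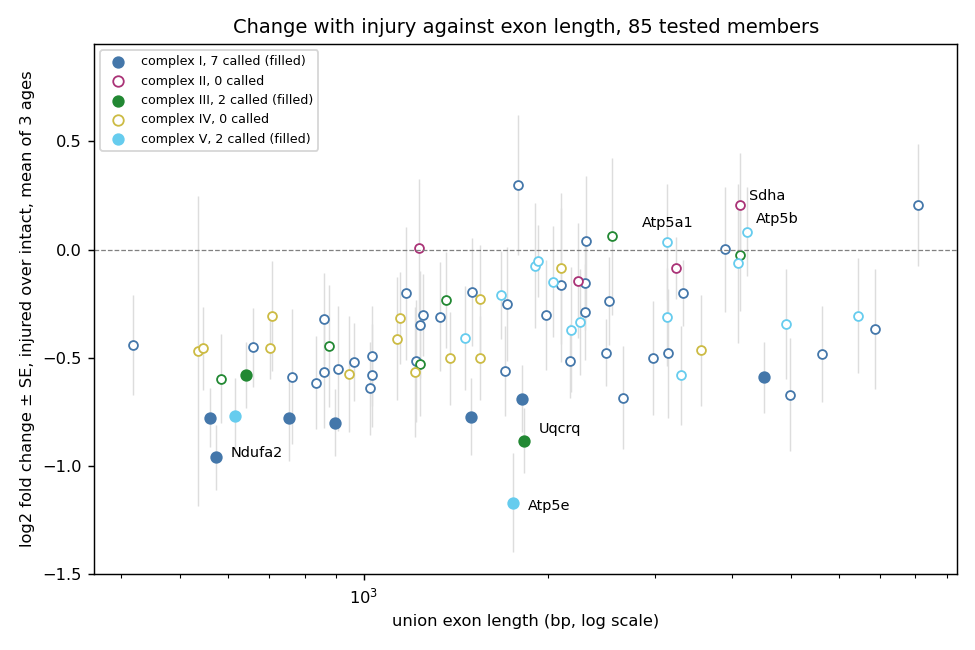
Log2 fold change with injury averaged over 3 ages (± SE, TMM scale) against exon length in bp on a log axis, for the 85 tested members. Colours give the complex, filled points are called members, and named points include Atp5e, Ndufa2 and Uqcrq below and Sdha, Atp5b and Atp5a1 near 0. The called members lie mostly at short lengths, 6 of 11 under 1000 bp. Of the other tested genes under 1000 bp, 20 of 740 were called lower. With spike-in scaling the members' median is 2.42.

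Other genes of the pathway were read from lists of known genes. Of 13 subunits encoded in mitochondrial DNA, 8 were tested and none was called in the comparison averaged over ages. The untested mt-Co2, mt-Co3, mt-Atp6, mt-Atp8 and mt-Nd4l had group means of at most 0.602 CPM, so sums rest on the other genes. The summed level of the 13 was 2697 to 2822 CPM in intact and 2791 to 3528 in injured libraries of 1 month, and 888 to 1349.5 against 2138 to 2637 at 8 months. At 12 months it was 1821, 104367 and 1831 CPM in intact and 2551 to 2798 in injured libraries. The value of 104367 belongs to the library that stood apart, and the sign of the comparison turned on it. With it the median log2 fold change averaged over ages was -0.79, and without it 0.66 with 6 of 8 called higher, while the median of the nuclear members was below 0 either way. At 12 months mt-Nd2 fell by 4.61 (adjusted p = 0.044) with this library, and none of the 8 was called without it. Among 8 electron carriers and subunits named outside the pattern, none was called averaged over ages, with a median of -0.34. Etfb, of the electron transfer flavoprotein, fell by 1.88 on the log2 scale at 12 months (adjusted p = 0.0216). Without the library that stood apart, 2 of the 8 were called lower averaged over ages, with a median of -0.49, and 4 at 12 months, with a median of -1.07.

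Of 40 assembly factors outside the name pattern, 37 were tested and none was called with injury averaged over ages, with a median of -0.20. When the library that stood apart was left out, 4 were called lower, with a median of -0.28, and 7 at 12 months, with a median of -0.42. The 14 citric acid cycle enzymes had a median of 0.02 with none called. The 11 regulators of mitochondrial biogenesis, such as Ppargc1a, Nrf1 and Tfam, had a median of 0.26 with none called, and 1 was called lower without that library. The median over all tested genes was 0.03, so the cycle enzymes and the regulators lay near or above it, and the assembly factors and the members below it.

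Markers of other cells were measured in the same libraries. Of 8 genes of satellite glia, the cells that wrap these neurons, 1 was called higher averaged over ages, Ptprz1, and their summed level was 97.3 to 612.8 CPM in intact and 1293 to 2030.5 in injured libraries of 1 month. At 8 months the sums were 96.0 to 527 and 359 to 706 CPM, and at 12 months 47.8 to 744 and 116 to 437, so that the groups were apart at 1 month and overlapped later. At 12 months the overlap comes from the library that stood apart, at 744 CPM, and the other intact libraries, at 47.8 and 91.5 CPM, lay below all 3 injured ones. Of 12 sensory neuron genes, Stmn2 and Tubb3 were higher and Rbfox3 lower, and the summed level was 8553 to 24229 CPM in intact and 8908.5 to 15698 in injured libraries. The value of 24229 is that of the library that stood apart, and without it Rbfox3 was not called. Schwann cell sums ran from 216 to 893 CPM in intact and 323 to 562 in injured libraries, with none of 7 tested genes called. Of 6 fibroblast genes, 5 were tested and Col1a2 was called higher, with sums of 0 to 74.1 CPM in intact and 18.6 to 63.7 in injured libraries. Sums of 10 immune, 6 vascular and 9 muscle genes stayed at or below 32.5, 37.2 and 2.50 CPM. The part of other cells, and of the share of CT010467.1, in the difference of the members was not tested.

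Single neurons gave the level of these transcripts cell by cell. Each group is treated as 1 sample, since no label ties cells to mice, so there is no test. Summed over members, the share of counts outside CT010467.1 had a median of 1.84% in the 18 intact cells of 1 month (range 1.23% to 4.44%) and 1.72% in the 21 injured cells (0.956% to 8.01%). At 1 year it was 1.77% in 8 intact cells (0.657% to 2.75%) and 1.53% in 21 injured cells (0.621% to 2.56%), with 1 further injured cell at 0 counts. The ranges of intact and injured cells overlapped at both ages. The cell at 8.01% had 310 detected genes.

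**Figure D5:**
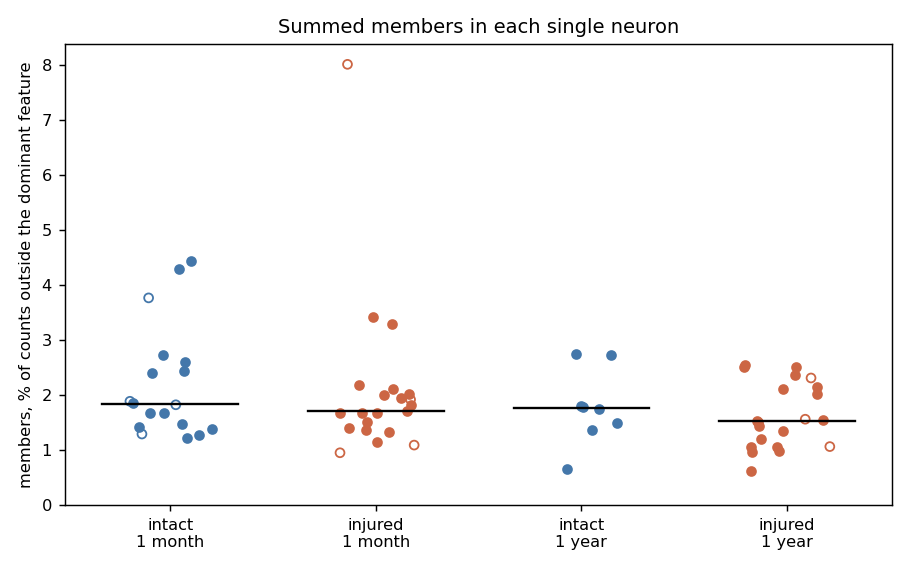
Summed members as a percentage of the counts outside CT010467.1 in each single neuron, on a linear axis from 0. Points are cells (blue intact, orange injured), filled where at least 5000 genes were detected, and bars are group medians. The medians lie between 1.53% and 1.84%, and the cells of the 4 groups overlap.

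Pooled over the cells of a group, members made up 18694 CPM of the counts outside CT010467.1 in intact and 17207.5 in injured cells of 1 month. At 1 year they made up 19069 and 17402 CPM. The exact 95% Poisson intervals, which cover counting error only, were 18649.7 to 18739, 17172 to 17243, 19033 to 19105 and 17375 to 17429 CPM. The log2 ratios of injured to intact were -0.12 and -0.13. Of the 85 members tested in the low-input libraries, 57 were lower in pooled injured cells at 1 month, with a median of -0.25 against -0.07 over all tested genes with counts. At 1 year 61 were lower, with a median of -0.11 against 0.02. Of the 11 members called in the low-input libraries, 9 were lower at 1 month with a median of -0.40 and 10 at 1 year with a median of -0.13. When each cell had equal weight, 10 of the 11 were lower at 1 month but 5 at 1 year, so the direction at 1 year depended on the weight given to each cell. Cox7a2l was at 146 and 177 CPM in intact and injured cells of 1 month and at 105 and 99.7 CPM at 1 year.

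Nearly all members were detected in most neurons. The median cell had counts for 83 to 86 of the 92 members in each group, and for 83 in each group after each cell was thinned to 100000 counts, which left 12, 17, 8 and 18 cells. Cox4i2, an isoform at a low level in most groups, was at 11.9 CPM (11.003 to 12.8) in the pooled intact cells of 1 year, with counts in 3 of 8 cells, and at 0.468 to 0.870 CPM in the other groups. Ndufa4l2 was at 4.10 CPM in the same group, again with counts in 3 of 8 cells, and had 0 counts in both groups of 1 month, which allows up to 0.102 and 0.0713 CPM. The levels of both genes in that group rest on 3 cells.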

How the data were processed

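RNA libraries of mouse sensory neurons were analysed: 18 low-input libraries in 6 groups of 3, and 69 single cells in 4 groups. Bisulfite libraries were not used here. The deposited table holds raw counts per gene: per the file headers, featureCounts 1.5.2 counted read pairs over exons by gene name, without strand, on GENCODE genes with ERCC spike-ins. Per the submitters' processing notes, Trim Galore and STAR were also used and the build was mm10. Coordinates are those of the deposited count file. For 38 members another feature overlapped the span from gene start to gene end, on either strand. Overlap of exons was not examined, so it is not known for which of them reads of a neighbour could be mixed in.

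Low-input counts were fitted with edgeR 4.0.16 (R 4.3.3): TMM scaling, edgeR's default expression filter, and the robust quasi-likelihood test over 6 groups at 12 residual degrees of freedom, with Benjamini-Hochberg adjustment over 14212 genes and a threshold of 0.05. The common biological coefficient of variation was 0.543. Where members at an unadjusted p below 0.05 are counted in this fit, the matching number over all genes is not given. The script was tested on simulated data. Single-cell counts were summed per group. Alternatives were RLE and ERCC scaling, no filter, DESeq2 1.42.0, replicate blocks, the dominant feature left out, and each library left out.

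The members, gene lists and rules were chosen with earlier results of these data known. Named members were those called averaged over ages, up to 8 with the smallest adjusted p in other comparisons, the 2 highest per kilobase in each complex, and listed isoforms. Ndufv3, Ndufaf8, Ndufs1, Sdha, Sdhc, Uqcrc1, Uqcrc2 and Uqcrfs1 were named after their values were seen.

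Deviations of same-numbered libraries from their group means were correlated over 1669 genes with a mean of at least 50 CPM. At 1 month all 3 correlations were above 0.1 (0.206, 0.218 and 0.485), so the numbers were taken as pairs there, from the data and not from the labels. Intact 1 with injured 2 had 0.210 at that age, and the other differently numbered pairs were below 0. Intact 1 with injured 2 had 0.608 at 8 months, so such correlations also arise between different numbers and the pairing is uncertain. Same-numbered correlations were -0.498, -0.352 and 0.106 at 8 months, and -0.085, -0.098 and 0.082 at 12 months, so the numbers were not taken as pairs there.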

Additional observations from a re-analysis of the deposited data

Results flagged for a closer look

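Sdhc, a membrane anchor of succinate dehydrogenase, moved in opposite directions at 8 and 12 months. At 8 months it was at 28.02, 20.9 and 29.5 CPM in intact and 34.8, 50.1 and 42.6 in injured libraries, and the log2 fold change with injury was 0.70 ± 0.25 (SE). At 12 months it was at 63.6, 52.4 and 49.8 CPM in intact and 31.3, 36.97 and 38.2 in injured libraries, with a log2 fold change of -0.64 ± 0.25. The groups did not overlap at either age, and every injured library lay above the intact ones at 8 months and below them at 12 months. Of all 14212 tested genes, 1334 had injured libraries above without overlap at 8 months, and 950 had them below at 12 months. Neither difference passed edgeR's quasi-likelihood test (adjusted p = 0.225 and 0.176). The interaction of injury and age for Sdhc had an unadjusted p of 0.00384 and an adjusted p of 0.348 in edgeR's test over 14212 genes, so the difference between ages did not pass the test. The injured libraries of both ages overlapped, at 31.3 to 50.1 CPM, while the intact ones did not.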

How the results depend on the processing

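The direction of the members' differences depended on the scaling, and ERCC spike-ins took 1.197% to 11.6% of counts in injured and 2.00% to 26.9% in intact libraries. Whether spike-in amount and number of neurons were equal between libraries is not given in the sources used here. With ERCC scaling, members called in comparisons of injury were 85 averaged over ages and 84 at 12 months, all higher, and 85 from 1 to 12 months in intact neurons, all lower, while none was called from 1 to 8 months in either condition or from 8 to 12 months in intact neurons. For this scaling the number of all genes called is given only for the comparison averaged over ages. These counts do not set members apart from other genes. Log2 fold changes that reversed with ERCC scaling were, averaged over ages, Ndufa2 1.99, Uqcrq 1.92, Ndufa6 2.01, Ndufs6 2.09, Atp5e 1.88, Ndufaf3 2.12, Atp5k 2.15, Ndufc1 2.00, Ndufc2 2.04, Uqcr11 2.34, Ndufb7 2.30, Ndufb6 2.52, Sdhb 2.62, Uqcr10 2.25, Cox8a 2.32, Cox6a1 2.34, Cox4i1 2.56, Cox6b1 2.57, Cox7a1 2.37, Cox7a2 2.17, Cox7a2l 2.42, Cox7b 2.23, Atp5g1 2.51, Atp5g2 2.62, Atp5g3 2.39, Ndufa4 2.36. At 12 months they were Ndufa2 3.55, Uqcrq 3.43, Atp5e 3.40, Ndufs6 3.63, Uqcr11 3.56, Ndufa6 3.88, Atp5k 3.62, Ndufb7 4.01, and from 8 to 12 months in intact neurons Ndufa2 -1.07, Atp5k -0.28, Atp5e -0.72, Uqcr11 -0.40, Ndufs6 -0.64, Cox7a2l -0.33. RLE scaling gave 12, 14 and 17 calls averaged over ages, at 12 months, and from 8 to 12 months in intact neurons.

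DESeq2 called 22 members averaged over ages, 27 at 12 months, 10 from 1 to 8 months and 34 from 8 to 12 months in intact neurons, 1 from 8 to 12 months in injured neurons, and 9 for the interaction. Without a filter 3 were called from 1 to 8 months in intact neurons and 1 for the interaction. With the replicate number as a block at every age, 3 members were called averaged over ages and 2 at 12 months. With the block at 1 month alone, chosen after seeing the data, 9, 8 and 12 were called averaged over ages, at 12 months, and from 8 to 12 months in intact neurons, and 0 from 1 to 8 months in both conditions. For these alternatives and for RLE scaling the share of all genes called is not given. Their counts therefore do not set members apart from other genes.

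Leaving out each library in turn gave 8 to 38 calls averaged over ages, 4 to 53 at 12 months, 1 to 12 from 1 to 8 months and 8 to 59 from 8 to 12 months in intact neurons. In injured neurons it gave 0 to 1 from 1 to 8 months and 0 to 1 from 8 to 12 months. The highest of each, apart from the count of 1 from 1 to 8 months in injured neurons, came without the second intact library of 12 months. For fits that left out any other library, the share of all genes called is not given. Values near 0 changed sign: Sdhd was at -0.0020 with RLE scaling and at -0.15 to 0.23 with single libraries left out, and without the second intact library of 12 months Atp5b was at -0.041. Atp5a1 was at -0.12 to 0.20 and Cox7a1 at -1.18 to 0.083 with single libraries left out. Thinning cells to 100000 counts changed the median number of members detected in intact cells of 1 year from 86 to 83. Depth limits the 7 untested members, which had at most 11 counts in any library, and single cells have no replicate test.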
